A study of Homo sapiens with 9 samples.

Results

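The NF-kB genes described here are 36 named genes: NF-kB subunits, their inhibitors, and cytokine, survival and inflammatory genes known as NF-kB targets. They were selected by symbol, and all 36 were found among the 30017 genes of the count table. Of these, 29 passed the filter on low counts and were tested, against 12712 genes tested in all. The cells were MOLM13, an established human acute myeloid leukemia line, transduced with a lentivirus that carried GFP and a short hairpin RNA, and were sorted on day 4. The hairpins were sh-Control, shDDX41 #1 and shDDX41 #2, the last 2 of which target the RNA helicase gene DDX41, with 3 libraries each, named A, B and D. All 3 groups therefore share the cell line, the virus, the GFP marker and the sort, each hairpin is a single sequence, and the labels name no inflammatory stimulus.

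NF-kB proteins are transcription factors that pair up as dimers of RELA, RELB, REL and the processed products of NFKB1 and NFKB2. In resting cells IkB proteins such as NFKBIA hold the dimers in the cytoplasm, and signals from receptors for TNF, interleukin-1 or microbial products lead to IkB degradation. The released dimers switch on cytokines, survival genes and also their own inhibitors, so that NFKBIA and TNFAIP3 act as negative feedback. Monocytic cells are known for strong NF-kB responses.

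The promoters of some members hold the letters that NF-kB dimers bind. A few with such letters are shown, of genes that differed between groups in the counts below. The promoters of ICAM1, SOD2, PLAUR and BIRC2, which also differed, held no match to the NF-kB consensus and are not shown. Each sequence is the RefSeq promoter of the GRCh38.p14 assembly, from 250 bases before to 50 bases after the annotated start, 5′ to 3′ on the strand of the gene. Capitals mark matches to the NF-kB consensus on either strand. NFKBIA lies at chr14:35404700-35404999 on the minus strand, NFKBIZ at chr3:101827740-101828039 on the plus strand, TNFAIP3 at chr6:137867009-137867308 on the plus strand and NFKB1 at chr4:102501109-102501408 on the plus strand.
NFKBIA: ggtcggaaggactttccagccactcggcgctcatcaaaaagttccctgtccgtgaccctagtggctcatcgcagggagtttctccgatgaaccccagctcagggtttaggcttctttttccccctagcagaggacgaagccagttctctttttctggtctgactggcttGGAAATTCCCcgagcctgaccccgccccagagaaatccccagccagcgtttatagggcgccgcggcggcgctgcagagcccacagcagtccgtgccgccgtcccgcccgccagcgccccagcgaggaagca
NFKBIZ: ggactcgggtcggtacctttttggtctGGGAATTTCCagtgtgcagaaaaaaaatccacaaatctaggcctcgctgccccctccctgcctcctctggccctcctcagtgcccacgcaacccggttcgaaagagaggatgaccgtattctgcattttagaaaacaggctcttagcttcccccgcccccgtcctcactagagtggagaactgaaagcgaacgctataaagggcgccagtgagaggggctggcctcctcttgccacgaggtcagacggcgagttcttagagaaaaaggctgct
TNFAIP3: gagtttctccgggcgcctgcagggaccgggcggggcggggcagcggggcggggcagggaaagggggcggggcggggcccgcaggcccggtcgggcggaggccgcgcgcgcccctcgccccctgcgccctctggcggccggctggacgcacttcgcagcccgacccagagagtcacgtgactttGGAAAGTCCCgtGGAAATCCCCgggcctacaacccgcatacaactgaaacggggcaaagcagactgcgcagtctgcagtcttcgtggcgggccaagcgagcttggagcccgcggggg
NFKB1: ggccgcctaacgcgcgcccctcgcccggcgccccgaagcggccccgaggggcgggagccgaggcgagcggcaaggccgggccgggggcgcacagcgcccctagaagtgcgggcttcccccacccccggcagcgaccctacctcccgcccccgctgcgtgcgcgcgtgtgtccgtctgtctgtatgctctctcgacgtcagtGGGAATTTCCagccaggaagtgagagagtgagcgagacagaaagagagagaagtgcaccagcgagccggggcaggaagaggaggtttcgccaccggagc

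The first capital stood 81 bases before the start in NFKBIA, 223 in NFKBIZ and 49 in NFKB1, and these 3 promoters held the same 10 letters, GGGAATTTCC, read on one strand or the other. TNFAIP3 held 2 different matches, GGGACTTTCC and GGGGATTTCC, which began 67 and 55 bases before the start and were not the same letters as in the other 3. A RefSeq promoter was found for 29 of the 36 members, and the entries missing were CCL2, CCL4, CCL5, CD40, IER3, NFKBIE and RELB. The consensus was matched in 12 of these 29 promoters (41.4%), compared with 5.72% of 27305 promoters of this length. The 12 were NFKBIA, NFKBIZ, TNFAIP3, NFKB1, REL, BCL3, BIRC3, IL6, CXCL1, CXCL2, CXCL3 and CXCL10. The letters GGANNTTCC, in which N is any base and which can overlap the consensus, were matched on either strand in 13 of the 29 (44.8%) and in 4.59% of all promoters. Among promoters of tested members the consensus was matched in 7 of 23 (30.4%), compared with 6.49% of 9005 promoters of tested genes. The matches were therefore more frequent in the member promoters by both sets of letters. The members were chosen as NF-kB genes and known NF-kB targets, so this excess follows from the choice of genes and is not a result of these libraries. They stood in promoters of well expressed genes and also in those of silent ones, since CXCL1 and CXCL3 held GGGAATTTCC as well and IL6 held GGGATTTTCC. These are matches of letters, and binding was not measured.

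Libraries held 16385238 to 20510032 counts. DDX41 itself ranged from 113 to 117 CPM (counts scaled to a common library size, with composition factors) across the controls, from 9.95 to 12.9 CPM across the shDDX41 #1 libraries and from 38.9 to 42.5 CPM across those of shDDX41 #2. The knockdown was therefore strong with the first hairpin and partial with the second. In what follows, the strong knockdown means shDDX41 #1 and the partial one shDDX41 #2. Each strength comes from a single hairpin, so the strength of knockdown and other effects of the hairpin sequence cannot be told apart. T cell markers summed to at most 2.18 CPM and B cell markers to at most 1.26 CPM in any library, and erythroid markers were at 0 in all 9, while 9 markers of a myeloid leukemia line summed to 2863 CPM or more. Markers of epithelial cells and fibroblasts, mostly KRT18, summed to 15.4 to 19.7 CPM. The 16 markers of monocytic maturation gave sums from 1122 to 1203 CPM across the controls, from 1089 to 1200 CPM across shDDX41 #1 and from 2059 to 2094 CPM across shDDX41 #2. Most of that sum was LYZ (lysozyme), which averaged 931 ± 54.9 CPM in the controls and 1818 ± 20.6 CPM for shDDX41 #2 (SD, n = 3), while CD14, a defining monocyte receptor, was at most 0.182 CPM in any library. Of the 12 tested maturation markers, 3 were called higher and 3 lower with shDDX41 #1 (50%, compared with 47.8% of all tested genes). With shDDX41 #2, 5 were called higher and none lower (41.7%, compared with 25%). MPEG1, a pore-forming protein of macrophages, was higher by 1.88 with shDDX41 #1 and 1.87 with shDDX41 #2 on the log2 scale (adjusted p = 4.4e-09 and 1.1e-08), and CSF1R, the receptor of a macrophage growth factor, fell by 0.86 with shDDX41 #1 (adjusted p = 3.8e-05). The part of these marker differences in the NF-kB results was not tested for either hairpin. In such bulk libraries, fewer cells that express a gene and less RNA per cell cannot be told apart.

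One control library stood apart on these genes. sh-Control A was the highest of the 3 control libraries for 23 of the 29 tested members (79.3%), compared with 32.6% of all tested genes. Its median member lay 0.22 above the mean of the other 2 control libraries on the log2 scale, and the median of all tested genes lay at -0.01. Both hairpins are compared with the same sh-Control libraries, so sh-Control A enters both comparisons. Called results that changed without it are given both ways, and why it was higher was not tested. Over all genes it was shDDX41 #1 D that lay farthest from its replicates, with a chi-square per degree of freedom of 17.6 and 19.2 against A and B, which gave 2.91 against each other. Without shDDX41 #1 D, the share of all tested genes called with shDDX41 #2 was 32.9% rather than 25%, with 14 members called, and the calls that changed are given beside NFKBIB, NFKBIZ, TNFAIP3, REL, TNF, BIRC3, NLRP3 and NFKB1.

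A gene is called here when its adjusted p is under 0.05 in edgeR's quasi-likelihood test, with Benjamini-Hochberg adjustment over all 12712 tested genes. With shDDX41 #1, 12 of the 29 tested members were called (41.4%), compared with 47.8% of all tested genes. NFKBIB, NFKBIZ and ICAM1 were higher and TNFAIP3, NFKB1, RELB, BCL3, CCL4, CCL5, BIRC2, SOD2 and PLAUR were lower, against a background of 23.7% of genes called higher and 24.1% called lower. The share of members called was thus no larger than that of genes at large. The median log2 fold change of the 29 was -0.16, beside 0.01 over all tested genes, and 18 of the 29 values were below 0, compared with 6200 of all 12712. Without sh-Control A the middle value of the 29 was -0.02 (CD83), so this lean depended on that library. Under upper quartile scaling the 3 higher and 9 lower members became 6 higher and 7 lower. With shDDX41 #2, 12 members were called (41.4%), compared with 25% of all tested genes. Only NLRP3 was higher (background 11.6%), while NFKBIA, NFKBIE, NFKB1, RELB, TNF, CCL3, CCL4, BCL2A1, SOD2, CD83 and PLAUR were lower (background 13.4%). The median was -0.28, beside -0.01 over all tested genes, and 23 of the 29 values were below 0, compared with 6581 of all 12712. Without sh-Control A the middle value was -0.23 (NFKB1).

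Without sh-Control A, 9 members were called with each hairpin (31%), compared with 43.5% of all tested genes for shDDX41 #1 and 22.8% for shDDX41 #2. With shDDX41 #1, 3 were then higher and 6 lower, and with shDDX41 #2, 2 were higher and 7 lower. The count for shDDX41 #2 also fell to 6 without shDDX41 #2 B and to 7 without shDDX41 #2 D, where the share of all tested genes called fell as well, to 15.9% and 16.5%. Between the hairpins, 10 members were called (34.5%), compared with 48.8% of all tested genes. NFKBIA, NFKBIB, NFKBIE, CCL3, BIRC3 and ICAM1 were higher with shDDX41 #1 (background 24.6%), and TNFAIP3, BCL3, CCL5 and BIRC2 were lower (background 24.2%). The median difference was 0.12, beside 0.01 over all genes. In all, 20 members were called in at least 1 of the 3 comparisons and 9 in none. The 5 called with both hairpins, CCL4, NFKB1, PLAUR, RELB and SOD2, were lower with each, and no member was called in opposite directions. The matching shares of all tested genes, called in any comparison or with both hairpins, were not taken. These counts are therefore not read as particular to the members.

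**Figure D1:**
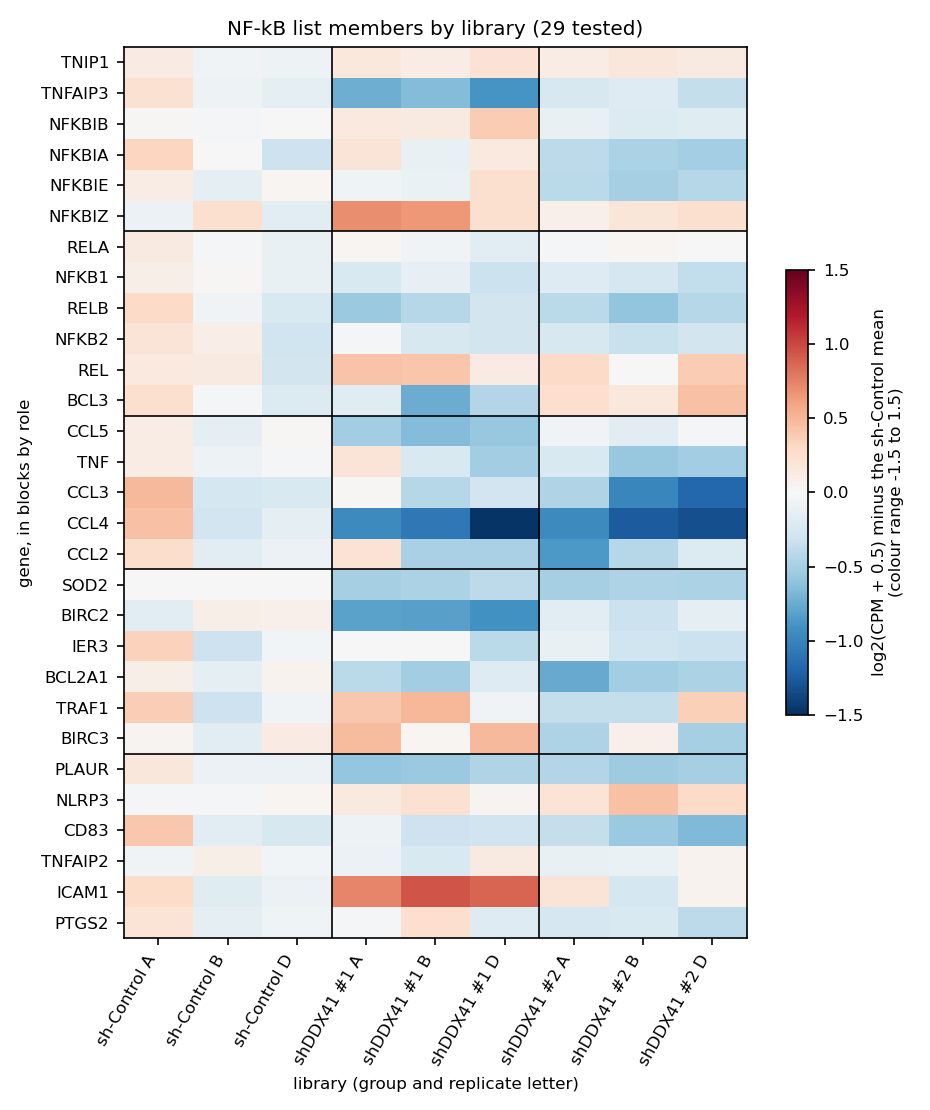
Level of each of the 29 tested members (rows, in blocks by role) in each of the 9 libraries (columns), as log2(CPM + 0.5) minus the mean of the 3 sh-Control libraries. The sh-Control A column is mostly above 0, the row of ICAM1 is high in all 3 shDDX41 #1 libraries, and SOD2, PLAUR and CCL4 are low in all 6 knockdown libraries.

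**Figure D2:**
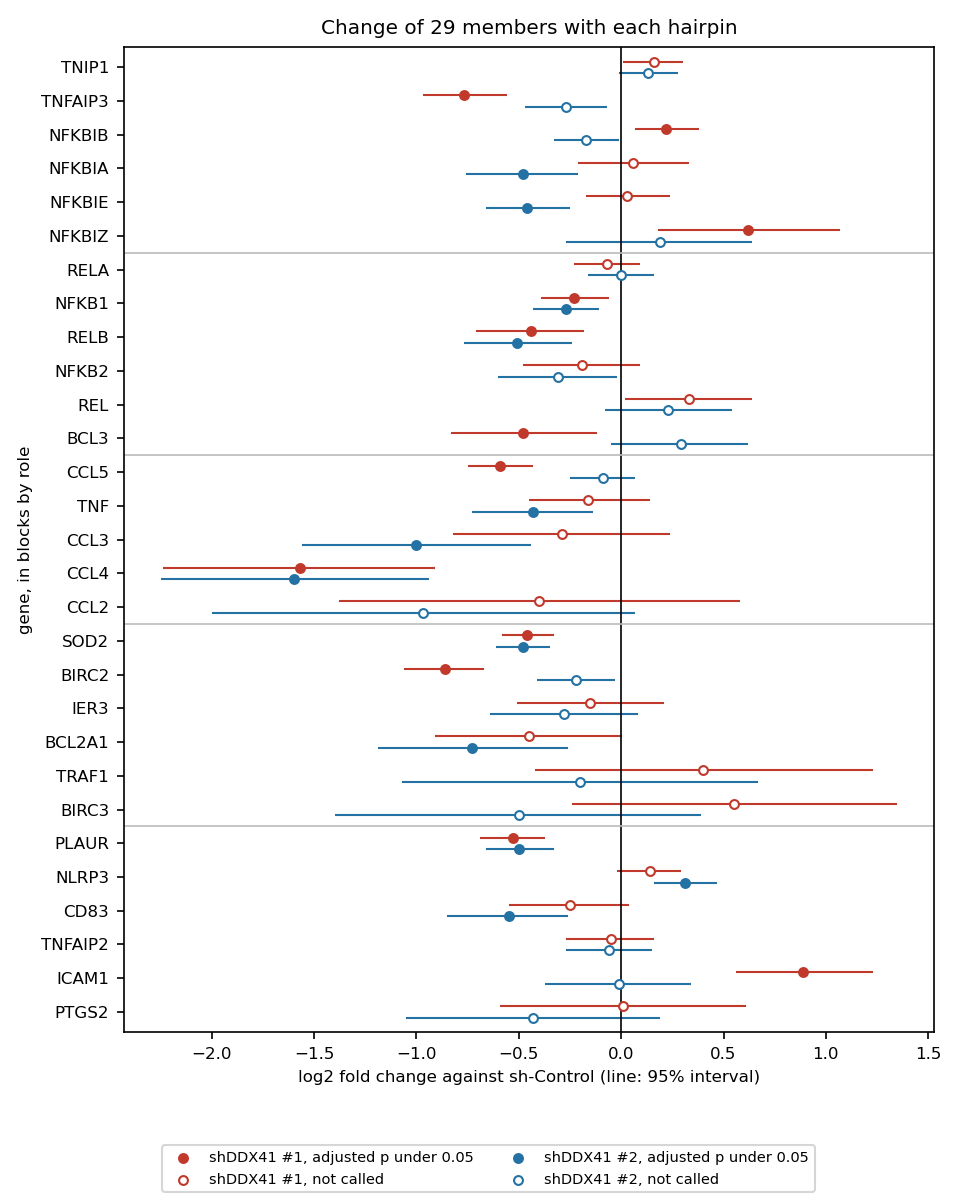
Log2 fold change against sh-Control (horizontal axis) of each tested member with shDDX41 #1 (red) and shDDX41 #2 (blue), with 95% intervals and filled points where the adjusted p was under 0.05. The points for CCL4 lie at -1.57 and -1.60, while those for TNFAIP3, BIRC2, CCL5 and ICAM1 lie apart from each other.

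Among the feedback inhibitors, NFKBIA and NFKBIE were lower with shDDX41 #2 and near the control level with shDDX41 #1. NFKBIA, which encodes IkB-alpha, was measured at 47, 37.3 and 30.1 CPM in sh-Control A, B and D. It stood at 43, 34.8 and 41.5 CPM in the same order with shDDX41 #1, and at 28.4, 26.9 and 26.3 CPM with shDDX41 #2. The shDDX41 #2 libraries lay below all others, and the other groups overlapped. The log2 fold change was -0.48 with shDDX41 #2 (SE 0.129, adjusted p = 0.0127) and 0.06 with shDDX41 #1 (adjusted p = 0.708, 95% interval -0.21 to 0.33). The hairpins differed by 0.55 (SE 0.129, adjusted p = 0.00266). The call against sh-Control was lost without sh-Control A (-0.31, adjusted p = 0.0636), without shDDX41 #2 B (-0.48, adjusted p = 0.0513) and without shDDX41 #2 D (-0.46, adjusted p = 0.0532). The difference between the hairpins passed the threshold under every alternative run.

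NFKBIE, which encodes IkB-epsilon, followed the same order. Its levels were 40.5, 34.1 and 38.5 CPM in sh-Control, 36, 35.2 and 44.6 CPM with shDDX41 #1, and 28.2, 26.5 and 27.9 CPM with shDDX41 #2. Again the shDDX41 #2 libraries were the 3 lowest of the 9. The gene fell by 0.46 on the log2 scale with shDDX41 #2 (SE 0.0972, adjusted p = 0.0034), and this call held under every alternative run. With shDDX41 #1 the value was 0.03 (95% interval -0.17 to 0.24), and the hairpins differed by 0.49 (SE 0.0976, adjusted p = 7.5e-04).

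NFKBIB, the gene of IkB-beta, stood at 56.5, 54.5 and 55.9 CPM in sh-Control, 61.5, 60.9 and 72.6 CPM with shDDX41 #1, and 51.4, 48.3 and 48.9 CPM with shDDX41 #2. The 3 groups did not overlap, with shDDX41 #1 on top and shDDX41 #2 at the bottom. It was higher with shDDX41 #1 by 0.22 (SE 0.0748, adjusted p = 0.0218), and the value with shDDX41 #2 was -0.17 (adjusted p = 0.12), called without shDDX41 #1 D (-0.16, adjusted p = 0.0471). Between the hairpins it differed by 0.39 (SE 0.0752, adjusted p = 5.6e-04). The rise with shDDX41 #1 lost its call without shDDX41 #1 D (0.15, adjusted p = 0.0686) and without sh-Control B (0.21, adjusted p = 0.0631). These IkB genes were thus each higher with the first hairpin than with the second.

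TNFAIP3 went the other way between the hairpins. It encodes A20, a ubiquitin-editing enzyme that shuts off signaling upstream of the IkB kinases. It was measured at 70, 57 and 53.9 CPM in sh-Control, 36, 38.1 and 32.2 CPM with shDDX41 #1, and 50.8, 52.5 and 46.8 CPM with shDDX41 #2. The 3 groups did not overlap, and the strong knockdown was the lowest. With shDDX41 #1 it fell by 0.77 on the log2 scale (SE 0.0978, adjusted p = 1.6e-05), a loss of 41.2%. With shDDX41 #2 the value was -0.27 (SE 0.0953, adjusted p = 0.0515), which passed the threshold without sh-Control D (-0.35, adjusted p = 0.0231) and without shDDX41 #1 D (-0.26, adjusted p = 0.0233) and shrank to -0.15 without sh-Control A (adjusted p = 0.231). The hairpins differed by -0.50 (SE 0.0984, adjusted p = 7.0e-04). NFKBIA and TNFAIP3, both with consensus letters in the promoters printed above, therefore parted with shDDX41 #1. With shDDX41 #2 both lay below all 3 controls, though TNFAIP3 was not called.

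NFKBIZ encodes an atypical nuclear IkB that acts with NF-kB on late target genes. Its low levels were 2.17, 2.87 and 2.05 CPM in sh-Control, 4.1, 3.95 and 2.85 CPM with shDDX41 #1, and 2.49, 2.73 and 2.85 CPM with shDDX41 #2. Replicate D of shDDX41 #1 lay within the range of the controls. The rise with shDDX41 #1 was 0.62 (SE 0.208, adjusted p = 0.0219), and it lost its call without any one of sh-Control A (0.57, adjusted p = 0.0653), sh-Control D (0.53, adjusted p = 0.0799), shDDX41 #1 A (0.53, adjusted p = 0.0834) or shDDX41 #1 B (0.57, adjusted p = 0.0689). The hairpins differed by 0.44 (adjusted p = 0.0893), called without shDDX41 #1 D (0.59, adjusted p = 0.0274). TNIP1, a partner of A20, was called in no comparison, with means of 101 ± 7.69, 112 ± 4.61 and 110 ± 2.76 CPM in sh-Control, shDDX41 #1 and shDDX41 #2 (SD, n = 3). Without sh-Control A it was called higher with both hairpins, at 0.22 (adjusted p = 0.0167) and 0.20 (adjusted p = 0.0467).

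**Figure D3:**
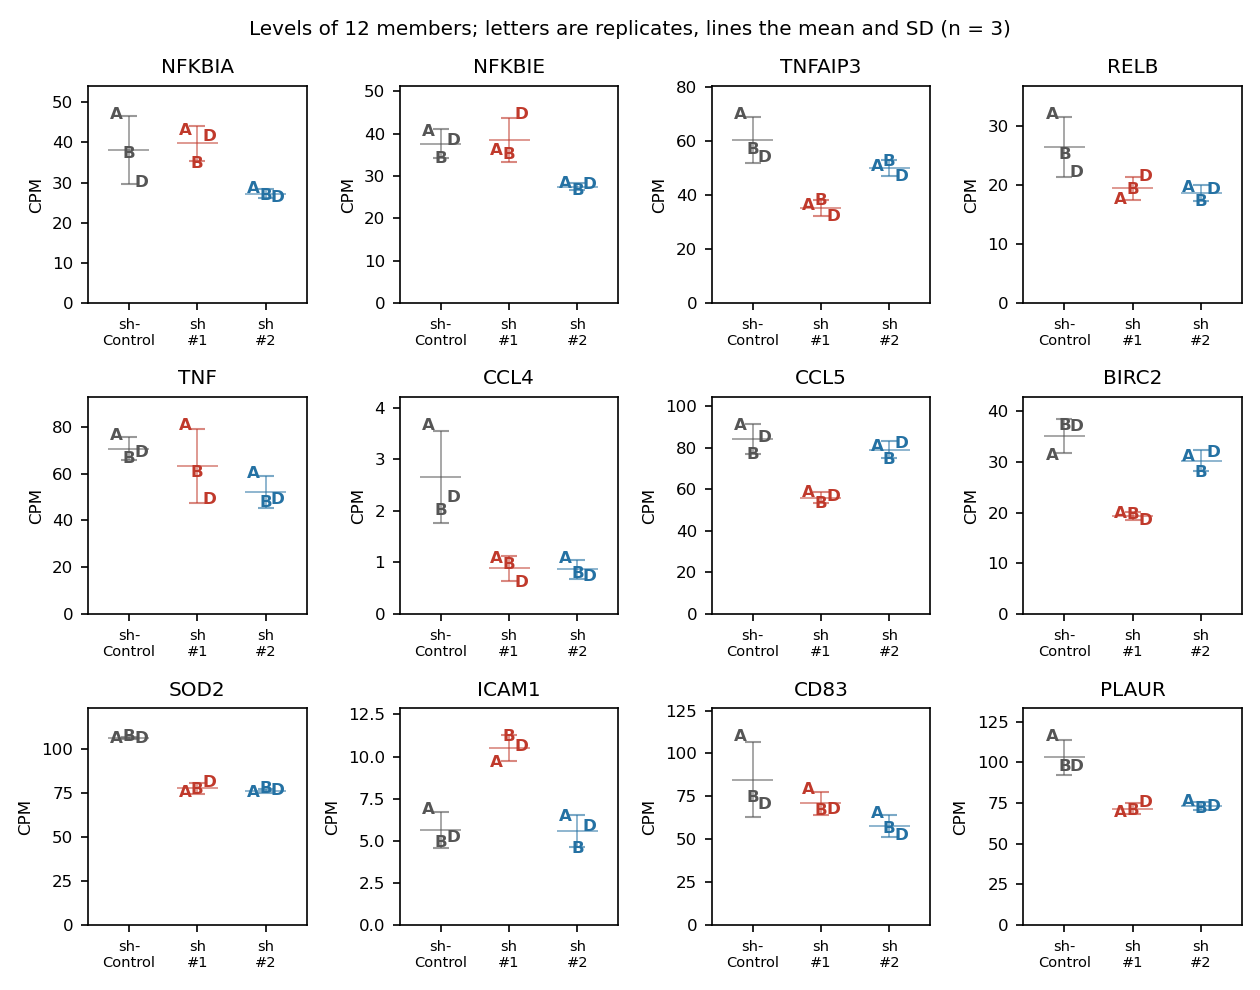
CPM (vertical axis, from 0) of 12 members in sh-Control, shDDX41 #1 and shDDX41 #2, with each replicate drawn as its letter and lines for the mean and SD of 3 libraries. The 3 SOD2 controls sit near 106 CPM, above all 6 knockdown libraries, and in the RELB and CD83 panels sh-Control A stands above the other controls.

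Among the subunits, RELB and NFKB1 were lower with both hairpins while RELA, the main activating subunit, was called in neither comparison. RELA averaged 83.5 ± 7.5 CPM in sh-Control, 79.8 ± 5.19 CPM with shDDX41 #1 and 83.6 ± 1.48 CPM with shDDX41 #2 (SD, n = 3). The 95% intervals of its log2 fold change were -0.23 to 0.09 with shDDX41 #1 and -0.16 to 0.16 with shDDX41 #2. RELB, the activating subunit of the alternative pathway, was measured at 31.9, 25.1 and 22.1 CPM in sh-Control, 17.5, 19.2 and 21.4 CPM with shDDX41 #1, and 19.5, 17.1 and 19.2 CPM with shDDX41 #2. All 6 knockdown libraries lay below the 3 controls. RELB fell by 0.44 on the log2 scale with shDDX41 #1 (SE 0.126, adjusted p = 0.00899) and by 0.51 with shDDX41 #2 (SE 0.125, adjusted p = 0.00865). Without sh-Control A the first value shrank to -0.28 and lost its call (adjusted p = 0.0548), and without shDDX41 #2 B the second was -0.45 (adjusted p = 0.051). The hairpins did not differ detectably (0.06, 95% interval -0.21 to 0.34).

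NFKB1, the gene of the p105 precursor and its p50 product, stood at 75.1, 71.6 and 65.5 CPM in sh-Control, 60.2, 64.7 and 56.6 CPM with shDDX41 #1, and 61.8, 59.2 and 54.7 CPM with shDDX41 #2. The controls lay above all 6 knockdown libraries, by less than 1 CPM at the nearest pair. The falls were small, at 0.23 on the log2 scale with shDDX41 #1 (SE 0.0763, adjusted p = 0.0241) and 0.27 with shDDX41 #2 (SE 0.0761, adjusted p = 0.0167). Without sh-Control A the values were -0.18 (adjusted p = 0.0898) and -0.23 (adjusted p = 0.0608), and without sh-Control B they were -0.21 (adjusted p = 0.0728) and -0.26 (adjusted p = 0.0635). The first call was also lost without shDDX41 #1 A (-0.22, adjusted p = 0.0693), without shDDX41 #1 D (-0.17, adjusted p = 0.075) and under upper quartile scaling (-0.15, adjusted p = 0.116). The second was lost without shDDX41 #2 B (-0.28, adjusted p = 0.0525) and without shDDX41 #2 D (-0.23, adjusted p = 0.0906).

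BCL3, a nuclear IkB family protein that works as a co-factor of p50 and p52 dimers, separated the hairpins. It was measured at 10.4, 8.54 and 7.53 CPM in sh-Control, 7.65, 5.03 and 6.31 CPM with shDDX41 #1, and 10.5, 9.82 and 12 CPM with shDDX41 #2. The knockdown groups did not overlap each other, while sh-Control overlapped both. BCL3 was lower with shDDX41 #1 than with shDDX41 #2 by -0.76 (SE 0.163, adjusted p = 0.00129), and that call held under every alternative run. Against sh-Control the value was -0.48 with shDDX41 #1 (SE 0.166, adjusted p = 0.0273) and 0.29 with shDDX41 #2 (adjusted p = 0.199). The first lost its call without sh-Control A (-0.34, adjusted p = 0.126), sh-Control B (-0.50, adjusted p = 0.0514) or shDDX41 #1 B (-0.33, adjusted p = 0.134), and under upper quartile scaling (-0.40, adjusted p = 0.0581).

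REL and NFKB2 were called in no comparison. REL, the gene of c-Rel, averaged 10.8 ± 1.81 CPM in sh-Control, 13.6 ± 1.65 CPM with shDDX41 #1 and 12.7 ± 1.71 CPM with shDDX41 #2 (SD, n = 3), and without shDDX41 #1 D it was called higher with shDDX41 #1 (0.44, adjusted p = 0.0186). Across the libraries left out, that value ran from 0.20 to 0.44 around 0.33. NFKB2, the gene of the p100 precursor, averaged 12.5 ± 2.22, 10.9 ± 1.07 and 10.1 ± 0.328 CPM in the same order. Without sh-Control D it was called lower with both hairpins, at -0.34 (adjusted p = 0.0401) and -0.45 (adjusted p = 0.0196). Leaving out sh-Control A instead gave -0.09 and -0.21, neither of them called.

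The cytokines and chemokines divided into silent and expressed genes. Of the 11 on the list, 6 did not pass the filter on low counts. IL6, CXCL1 and CXCL3 had 0 counts in all 9 libraries, which allows up to 3 counts per library, or 0.146 to 0.183 CPM. IL1B reached at most 11 counts, CXCL2 at most 8 and CXCL10 at most 4, and they were left out of the main test for these low counts. The limit for a count of 0 covers counting error only. With no filter on low counts, CXCL2 was called lower with shDDX41 #2 (adjusted p = 0.046), on 4, 5 and 8 counts in sh-Control against 0, 1 and 1, and IL1B and CXCL10 were called in no comparison. The remaining 5 had values below 0 with each hairpin when all 9 libraries were used, with a median of -0.40 for shDDX41 #1 and -0.97 for shDDX41 #2. With shDDX41 #1, 2 of them were called (40%, compared with 47.8% of all tested genes). With shDDX41 #2, 3 were called (60%, compared with 25%). With shDDX41 #1, CCL3 turned to 0.02 without sh-Control A and TNF to 0.01 without shDDX41 #1 D.

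CCL4, the chemokine MIP-1-beta, had the largest fall of the tested members with both hairpins. Its levels were 3.66, 2.01 and 2.26 CPM in sh-Control, 1.08, 0.958 and 0.607 CPM with shDDX41 #1, and 1.08, 0.793 and 0.727 CPM with shDDX41 #2. Every control library lay above every knockdown library, on 35 to 66 counts against 10 to 20. The log2 fold changes were -1.57 (SE 0.312, adjusted p = 7.7e-04) and -1.60 (SE 0.307, adjusted p = 0.00165), and both calls held under every alternative run. Between the hairpins the value was 0.02, with a wide 95% interval of -0.76 to 0.81. CCL4 has a near-identical copy, CCL4L1, with 37 to 84 counts in sh-Control, 15 to 36 with shDDX41 #1 and 20 to 30 with shDDX41 #2. It fell as well, by 1.18 (adjusted p = 0.0135) and 1.11 (adjusted p = 0.03) on the log2 scale, and the split of reads between the copies is uncertain.

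CCL3, the chemokine MIP-1-alpha, is encoded close to CCL4 on chromosome 17. It was measured at 6.88, 3.9 and 4 CPM in sh-Control, 4.82, 3.41 and 3.82 CPM with shDDX41 #1, and 3.35, 2.18 and 1.82 CPM with shDDX41 #2. The shDDX41 #2 libraries were the 3 lowest, and the other groups overlapped. The log2 fold change was -1.0 with shDDX41 #2 (SE 0.262, adjusted p = 0.0118) and -0.29 with shDDX41 #1 (adjusted p = 0.349), and the hairpins differed by 0.71 (SE 0.271, adjusted p = 0.0419). Without sh-Control A the fall with shDDX41 #2 was -0.68 (adjusted p = 0.0662), without shDDX41 #2 B it was -0.92 (adjusted p = 0.0589) and without shDDX41 #2 D it was -0.84 (adjusted p = 0.0603). The call between the hairpins was lost without shDDX41 #1 A (0.55, adjusted p = 0.16), shDDX41 #2 B (0.62, adjusted p = 0.133) or shDDX41 #2 D (0.54, adjusted p = 0.154). Its copy CCL3L3 was called with the other hairpin, at -0.85 with shDDX41 #1 (adjusted p = 0.00817) and -0.50 with shDDX41 #2 (adjusted p = 0.12), so the values of CCL3 are uncertain as to copy.

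CCL5, the chemokine RANTES, was called lower with the strong knockdown and not with the partial one, and the hairpins differed. It stood at 90.7, 76.5 and 84.7 CPM in sh-Control, 58.2, 53.3 and 56.4 CPM with shDDX41 #1, and 80.6, 74.4 and 82 CPM with shDDX41 #2. The shDDX41 #1 libraries lay well below the other 6, which overlapped. CCL5 fell by 0.59 on the log2 scale with shDDX41 #1 (SE 0.0753, adjusted p = 1.7e-05), and the value with shDDX41 #2 was -0.09 (adjusted p = 0.409). The hairpins differed by -0.50 (SE 0.0753, adjusted p = 7.4e-05), and both calls held under every alternative run.

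TNF, the cytokine that both triggers NF-kB and is made under its control, was measured at 76.1, 66.6 and 69 CPM in sh-Control, 80.6, 60.3 and 49.1 CPM with shDDX41 #1, and 60.1, 47.5 and 49.1 CPM with shDDX41 #2. The shDDX41 #1 libraries were widely spread and overlapped both other groups, and the shDDX41 #2 libraries lay below the controls. The log2 fold change was -0.43 with shDDX41 #2 (SE 0.137, adjusted p = 0.0307) and -0.16 with shDDX41 #1 (adjusted p = 0.365). The first lost its call without sh-Control A (-0.38, adjusted p = 0.104), sh-Control B (-0.47, adjusted p = 0.058), shDDX41 #2 B (-0.37, adjusted p = 0.132) or shDDX41 #2 D (-0.39, adjusted p = 0.113). Without shDDX41 #1 A, TNF was called lower with shDDX41 #1 too (-0.36, adjusted p = 0.0203), and without shDDX41 #1 D it was called higher with shDDX41 #1 than with shDDX41 #2 (0.43, adjusted p = 0.00293). CCL2, the monocyte attractant MCP-1, stayed under 1 CPM in all libraries and was called in no comparison, with 95% intervals of -1.38 to 0.58 and -2.0 to 0.07.

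Among the survival and TRAF-binding genes, BIRC2 fell with the strong knockdown and SOD2 with both. BIRC2 encodes cIAP1, a ubiquitin ligase that sustains TNF receptor signaling and restrains the alternative pathway. Its levels were 31.2, 37.2 and 36.9 CPM in sh-Control, 19.8, 19.6 and 18.4 CPM with shDDX41 #1, and 31, 27.9 and 31.8 CPM with shDDX41 #2. The shDDX41 #1 libraries were tightly grouped and the lowest. BIRC2 fell by 0.86 on the log2 scale with shDDX41 #1 (SE 0.0913, adjusted p = 2.4e-06), a loss of 45.1%. With shDDX41 #2 the value was -0.22 (SE 0.0876, adjusted p = 0.0804), called without sh-Control A (-0.30, adjusted p = 0.0233), and the hairpins differed by -0.65 (SE 0.092, adjusted p = 4.1e-05). For this gene sh-Control A was the lowest control, unlike for most members.

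BIRC3, the gene of the related cIAP2, is the neighbour of BIRC2 on chromosome 11. Its value between the hairpins went the other way, while with shDDX41 #2 both genes had values below 0. It was measured at 0.666, 0.516 and 0.737 CPM in sh-Control, 1.08, 0.658 and 1.09 CPM with shDDX41 #1, and 0.324, 0.694 and 0.303 CPM with shDDX41 #2. The knockdown groups overlapped through replicate B of each. The hairpins differed by 1.06 (SE 0.397, adjusted p = 0.0389), a call lost without shDDX41 #1 A (0.94, adjusted p = 0.116), shDDX41 #1 D (0.94, adjusted p = 0.107), shDDX41 #2 A (0.87, adjusted p = 0.136) or shDDX41 #2 D (0.86, adjusted p = 0.13), in DESeq2 (1.07, adjusted p = 0.0784), with no filter on low counts (1.05, adjusted p = 0.0591) and with only the 6 libraries compared (1.04, adjusted p = 0.0515). Neither hairpin differed from sh-Control by the test, at 0.55 (adjusted p = 0.238) and -0.50 (adjusted p = 0.411).

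SOD2, the mitochondrial manganese superoxide dismutase, had almost equal levels in the 3 control libraries. It stood at 106, 107 and 106 CPM in sh-Control, 75.1, 76.6 and 80.9 CPM with shDDX41 #1, and 74.9, 77.2 and 76.4 CPM with shDDX41 #2. The controls lay far above the 6 knockdown libraries, whose groups overlapped. SOD2 fell by 0.46 on the log2 scale with shDDX41 #1 (SE 0.06, adjusted p = 2.1e-05) and by 0.48 with shDDX41 #2 (SE 0.0599, adjusted p = 4.7e-05), and both calls held under every alternative run. Between the hairpins SOD2 gave 0.03, with a 95% interval of -0.10 to 0.15, while DDX41 itself differed by -1.79.

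BCL2A1, an anti-apoptotic BCL2 relative, was low, at 2.83, 2.35 and 2.74 CPM in sh-Control, 1.87, 1.68 and 2.24 CPM with shDDX41 #1, and 1.35, 1.69 and 1.76 CPM with shDDX41 #2. All 6 knockdown libraries lay below the controls. The log2 fold change was -0.73 with shDDX41 #2 (SE 0.216, adjusted p = 0.0231) and -0.45 with shDDX41 #1 (adjusted p = 0.0924). The first lost its call without sh-Control A (-0.67, adjusted p = 0.0621), sh-Control D (-0.70, adjusted p = 0.0663), shDDX41 #2 A (-0.62, adjusted p = 0.0985) or shDDX41 #2 B (-0.77, adjusted p = 0.0573). IER3, an early response gene, and TRAF1, an adaptor of TNF receptors, were called in no comparison. IER3 averaged 9.79 ± 2.4, 8.81 ± 1.43 and 8.06 ± 0.701 CPM in sh-Control, shDDX41 #1 and shDDX41 #2, and TRAF1 0.862 ± 0.33, 1.14 ± 0.312 and 0.766 ± 0.386 CPM (SD, n = 3). Without sh-Control A, the value of IER3 with shDDX41 #1 went from -0.15 to 0.05 and that of TRAF1 with shDDX41 #2 from -0.20 to 0.13.

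Among the surface, enzyme and inflammasome genes, ICAM1 rose with the strong knockdown and PLAUR fell with both. ICAM1, an adhesion molecule that binds leukocyte integrins, was measured at 6.83, 4.87 and 5.21 CPM in sh-Control, 9.64, 11.2 and 10.6 CPM with shDDX41 #1, and 6.43, 4.56 and 5.82 CPM with shDDX41 #2. The shDDX41 #1 libraries were the 3 highest, and the other 6 overlapped. ICAM1 was higher with shDDX41 #1 by 0.89 on the log2 scale, or 1.85-fold (SE 0.157, adjusted p = 3.0e-04), and higher than with shDDX41 #2 by 0.90 (SE 0.158, adjusted p = 2.5e-04). Both calls held under every alternative run. With shDDX41 #2 the value was -0.01 (95% interval -0.37 to 0.34), and its sign turned without sh-Control A (0.14), without shDDX41 #2 B (0.12) and under upper quartile scaling (0.02). ICAM1 was the only member called higher with shDDX41 #1 under every alternative, and it is a well-known NF-kB target, whereas the target genes TNFAIP3, CCL4, CCL5 and SOD2 were lower in the same libraries.

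PLAUR, the urokinase receptor, stood at 116, 97.5 and 97.3 CPM in sh-Control, 69.1, 70.1 and 75.5 CPM with shDDX41 #1, and 75.9, 71.4 and 72.7 CPM with shDDX41 #2. The controls lay above the 6 knockdown libraries, whose groups overlapped. PLAUR fell by 0.53 on the log2 scale with shDDX41 #1 (SE 0.0762, adjusted p = 4.7e-05) and by 0.50 with shDDX41 #2 (SE 0.0758, adjusted p = 2.8e-04). Both calls held under every alternative run, sh-Control A left out included.

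CD83, a surface marker of activated dendritic cells and B cells, was measured at 110, 74.1 and 70.1 CPM in sh-Control, 78.8, 66.8 and 67.5 CPM with shDDX41 #1, and 64.8, 56.1 and 52.4 CPM with shDDX41 #2. The shDDX41 #2 libraries were the 3 lowest, and sh-Control A was far above the other controls. The log2 fold change was -0.55 with shDDX41 #2 (SE 0.138, adjusted p = 0.00923) and -0.25 with shDDX41 #1 (adjusted p = 0.14). Without sh-Control A the first shrank to -0.32 and was still called (adjusted p = 0.0328), and without shDDX41 #2 D it was -0.49 (adjusted p = 0.0515). Without sh-Control D, CD83 was called lower with shDDX41 #1 as well (-0.38, adjusted p = 0.0342), and without sh-Control A that value was -0.02 (adjusted p = 0.868). Between the hairpins CD83 differed by 0.30 (adjusted p = 0.0895), a difference that was called without sh-Control A (0.30, adjusted p = 0.0138).

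NLRP3, the sensor of an inflammasome, was the member called higher with shDDX41 #2. It stood at 85.5, 85.4 and 88 CPM in sh-Control, 95.4, 101 and 89.1 CPM with shDDX41 #1, and 99.7, 117 and 105 CPM with shDDX41 #2. All 6 knockdown libraries lay above the controls. NLRP3 was higher by 0.31 with shDDX41 #2 (SE 0.0723, adjusted p = 0.00577), under every alternative run, and the value with shDDX41 #1 was 0.14 (adjusted p = 0.127), called without shDDX41 #1 D (0.19, adjusted p = 0.0282). Between the hairpins NLRP3 differed by -0.17 (adjusted p = 0.0596), called without shDDX41 #1 B (-0.22, adjusted p = 0.0385) and without shDDX41 #2 A (-0.22, adjusted p = 0.0408). IL1B, which codes for the cytokine precursor that this inflammasome processes, was nearly silent. TNFAIP2 and PTGS2, which encodes the inducible cyclooxygenase, were called in no comparison, with TNFAIP2 at 25.4 ± 1.48, 24.5 ± 3.28 and 24.4 ± 1.63 CPM and PTGS2 at 1.19 ± 0.219, 1.2 ± 0.268 and 0.883 ± 0.0831 CPM in sh-Control, shDDX41 #1 and shDDX41 #2 (SD, n = 3). CD40, a receptor of the TNF receptor family, did not pass the filter, with at most 7 counts, and was called in no comparison without it.

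**Figure D4:**
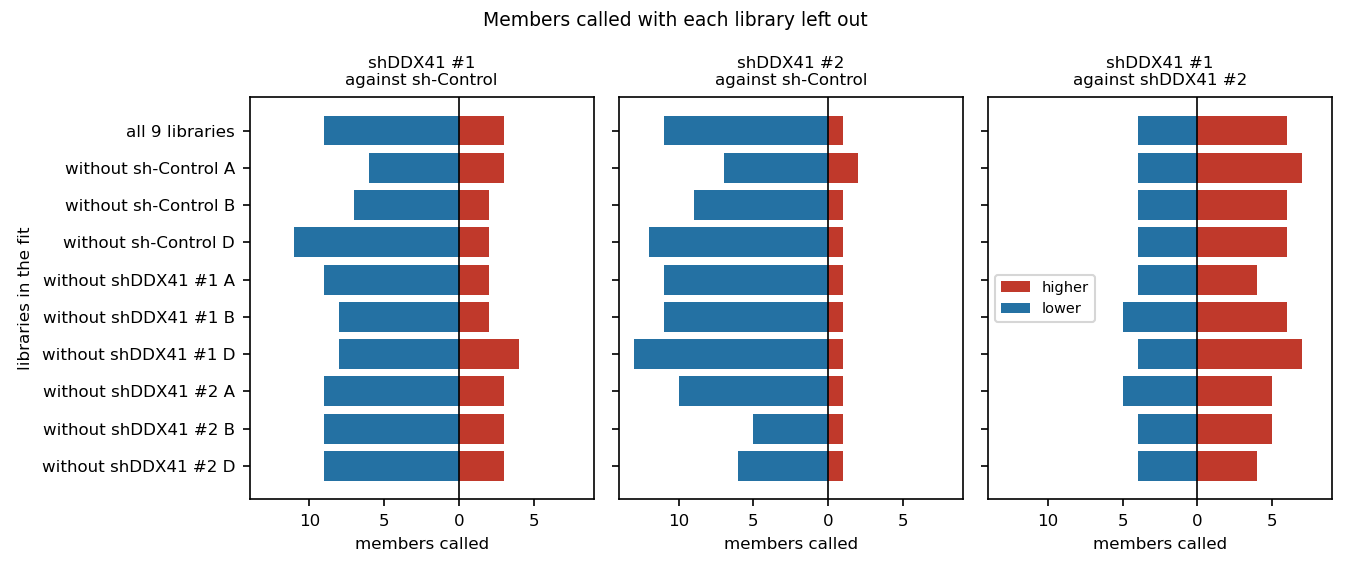
Number of tested members called higher (red, to the right of 0) and lower (blue, to the left) in each of the 3 comparisons, with all 9 libraries and with each library left out in turn. For shDDX41 #2 against sh-Control the total runs from 6 to 14, and it is 9 without sh-Control A.

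The direct test between the hairpins was also read for the members called with 1 hairpin only. Between the hairpins 48.8% of all tested genes were called, and the share among genes called with 1 hairpin only was not taken. Genes called with 1 hairpin and not the other are already selected to differ between them, since the same libraries are used. The counts that follow are therefore not read as particular to the members. Of the 7 called with shDDX41 #1 and not shDDX41 #2, 6 were also called between the hairpins, NFKBIZ being the exception. Of the 7 called with shDDX41 #2 and not shDDX41 #1, 3 were called between them, NFKBIA, NFKBIE and CCL3, and the difference did not pass the threshold for NLRP3, TNF, CD83 and BCL2A1. Groups did not overlap for 3 higher and 9 lower members with shDDX41 #1 (41.4%, compared with 53.1% of all tested genes) and for 1 higher and 15 lower with shDDX41 #2 (55.2%, compared with 43.8%). Between the hairpins, 8 members were higher and 4 lower without overlap (41.4%, compared with 57.7%).

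The members differed widely in level, here given in sh-Control as CPM per kb of exon. CCL5 (55.5 CPM per kb), TNF (42.1) and CD83 (33.7) were the highest. The inhibitors NFKBIB (23.9), TNIP1 (17.4), NFKBIA (16.1), NFKBIE (14.6) and TNFAIP3 (11.9) lay near the subunits RELA (15.3), NFKB1 (11.3) and RELB (8.69). The other members of these roles were well below, at 2.78 for NFKB2, 2.72 for BCL3, 0.822 for REL and 0.4 for NFKBIZ. NFKBIA, RELA and NFKBIE overlapped across the 3 control libraries, so their order is not resolved. Chemokine and cytokine genes were thus both at the top of the list and at its bottom, since CCL3 and CCL4 reached 3.3 and 1.3 CPM per kb and IL1B 0.111.

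**Figure D5:**
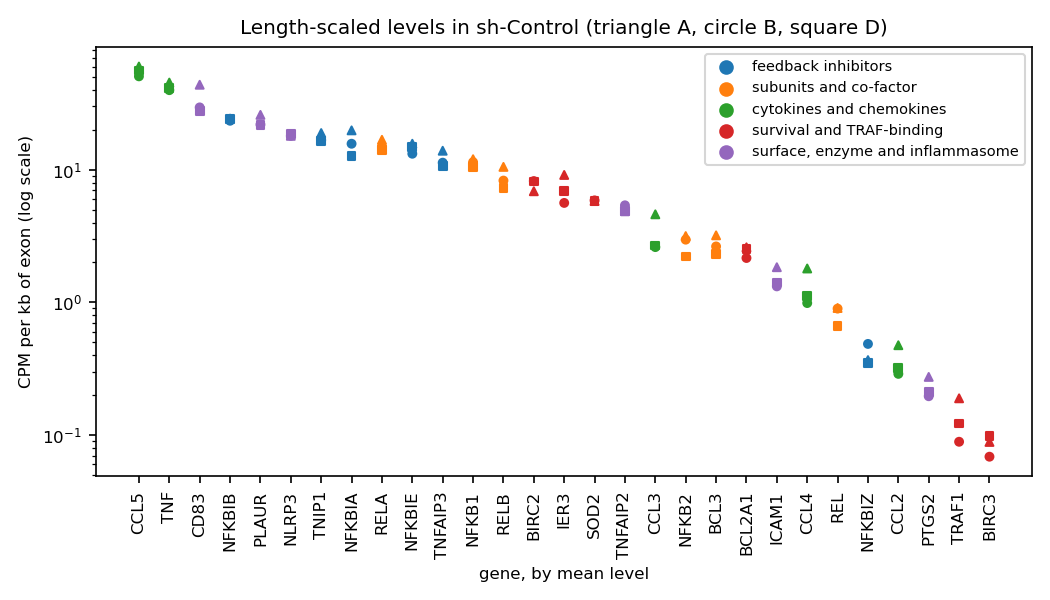
CPM per kb of exon (vertical log axis) of the members with counts in every library, ordered by their mean in sh-Control, with the 3 control libraries as separate symbols and colours for the role. CCL5 and TNF lead at 55.5 and 42.1, and the triangles of sh-Control A lie above the other symbols for most genes.

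Other genes of the pathway, from lists compiled from general knowledge, were called in both directions. Of 21 tested receptors and adaptors, 4 were higher and 2 lower with shDDX41 #1 (28.6% called, compared with 47.8% of all tested genes). With shDDX41 #2, 5 were higher and 2 lower (33.3%, compared with 25%). Of 30 tested genes of the kinase and ubiquitin machinery, adaptors and the nuclear IkB gene NFKBID included, 6 were higher and 6 lower with shDDX41 #1 (40%). With shDDX41 #2, 1 was higher and 3 lower (13.3%). Of 21 tested genes on a list of other targets, 4 were higher and 7 lower with shDDX41 #1 (52.4%), and 4 higher and 2 lower with shDDX41 #2 (28.6%). RIPK2 stood on this list and on that of the kinase and ubiquitin machinery, and was counted in each. Between the hairpins, 12 of 21, 12 of 30 and 15 of 21 genes of these lists were called (57.1%, 40% and 71.4%, compared with 48.8%). The median log2 fold changes of the 3 lists were 0.28, 0.03 and -0.07 with shDDX41 #1, beside 0.01 over all tested genes, and 0.01, -0.05 and 0.08 with shDDX41 #2, beside -0.01. In all, 3 genes passed the size rule of an absolute log2 fold change of at least 1 and at least 5 CPM. SDC4, the cell surface proteoglycan syndecan-4, fell from 24.7 ± 3.84 to 11.2 ± 1.65 CPM with shDDX41 #1 (-1.13, SE 0.133, adjusted p = 6.9e-06). The co-stimulatory ligand CD86 stood at 5.07 ± 0.467 CPM in sh-Control, 3.12 ± 1.2 CPM with shDDX41 #1 and 9.41 ± 1.35 CPM with shDDX41 #2. The interleukin-7 receptor gene IL7R stood at 11 ± 1, 12.9 ± 1.05 and 5.58 ± 0.329 CPM in the same order (SD, n = 3). These differed between the hairpins by -1.60 (SE 0.212, adjusted p = 2.1e-05) and 1.21 (SE 0.124, adjusted p = 1.7e-06). Against sh-Control, CD86 was lower with shDDX41 #1 (-0.70, adjusted p = 0.0181) and higher with shDDX41 #2 (0.90, adjusted p = 0.00403). IL7R was lower with shDDX41 #2 (-0.98, adjusted p = 5.7e-05) and not called with shDDX41 #1 (0.23, adjusted p = 0.107).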

How the data were processed

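RNA from sorted MOLM13 cells was sequenced in 9 libraries, 3 per hairpin. The authors deposited a table of whole-number counts per gene. The submitters' processing notes name FastQC 0.11.7, HISAT2 2.0.5, featureCounts 1.5.2 and the builds hg38 and mm10, with no role given. Whether counting used strand is not given in the sources used here, so overlapping genes cannot be told apart. The study's methods call its assays biologically replicated without naming these libraries, and nothing in the labels says that they were separate cultures, so p-values measure the spread between these samples, which may be technical.

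Counts were fitted with edgeR 4.0.16 in R 4.3.3 (quasi-likelihood test, TMM factors, filterByExpr with a minimum count of 10, 1 coefficient per group, all 9 libraries). The filter kept 12712 of 30017 genes, p-values were adjusted by Benjamini-Hochberg within each comparison, and genes with an adjusted p under 0.05 were called. CPM uses TMM-scaled library sizes, and lengths are GENCODE 29 exon unions. The fit was tested on simulated data. Libraries held 16385238 to 20510032 counts, and precision is set by the 3 libraries per group. For a single value, 3 against 3 libraries cannot give an exact permutation p below 0.1, so overlap is described.

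All members were named. Members called in a comparison have every library given, those not called their means or intervals, and other pathway genes were named by the size rule given with them. The members and lists were chosen with earlier results of these data known. Alternatives were DESeq2 1.42.0 (its size factors and its Wald test), upper quartile factors, no filter, the 6 libraries compared alone, a replicate block, an adjusted p under 0.01 and leaving out each library.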

Additional observations from a re-analysis of the deposited data

How the results depend on the processing

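No called member changed sign under any alternative run, and 7, 5 and 8 of the members called with shDDX41 #1, with shDDX41 #2 and between the hairpins kept their call under all of them. For shDDX41 #1 these were BIRC2, CCL4, CCL5, ICAM1, PLAUR, SOD2 and TNFAIP3, for shDDX41 #2 CCL4, NFKBIE, NLRP3, PLAUR and SOD2, and between the hairpins BCL3, BIRC2, CCL5, ICAM1, NFKBIA, NFKBIB, NFKBIE and TNFAIP3. The members called with shDDX41 #2 were 12, and were 7 at an adjusted p under 0.01, where fewer genes pass by construction, and 6 to 14 with 1 library left out. Low counts limit CCL2, BIRC3, TRAF1 and BCL2A1, and the 7 members under the filter were compared only in the fit without it.

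Values near 0 changed sign. Under upper quartile factors ICAM1 with shDDX41 #2 was 0.02 and PLAUR between the hairpins 0.01. With 1 library left out, the ranges were -0.44 to 0.02 for CCL3, -0.08 to 0.24 for NFKBIA, -0.07 to 0.10 for NFKBIE and -0.36 to 0.01 for TNF with shDDX41 #1, -0.13 to 0.14 for ICAM1 with shDDX41 #2, and -0.15 to 0.23 for CCL4, -0.01 to 0.09 for NFKB1, -0.01 to 0.13 for RELB and -0.0041 to 0.04 for SOD2 between the hairpins. With no filter on low counts, calls were gained for REL and CD83 with shDDX41 #1, for TNFAIP3 and CXCL2 with shDDX41 #2, and for TNF and CD83 between the hairpins, and under upper quartile factors for REL, TNIP1 and NLRP3 with shDDX41 #1. The cause was not tested.

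With the replicate letter as a block, 13 members were called with shDDX41 #1, 13 with shDDX41 #2 and 12 between the hairpins, against 12, 12 and 10 without it, and the shares of all tested genes called were 50%, 28.1% and 51.2%. The block gained calls for CD83 with shDDX41 #1 (adjusted p = 0.0208) and TNFAIP3 with shDDX41 #2 (adjusted p = 0.0168). Between the hairpins it gained TNF (adjusted p = 0.0174), CD83 (adjusted p = 0.00504) and NLRP3 (adjusted p = 0.0438) and lost BIRC3. The deviations of same-letter libraries correlated with r of 0.0725, 0.158 and 0.243 between shDDX41 #1 and sh-Control. Between shDDX41 #2 and sh-Control r was -0.0574 to 0.0155. The labels give no more than a shared letter, so no pairing was used in the main fit. Whether same-letter libraries were handled together was not tested. Each shDDX41 #1 library correlated best with the control of its own letter, though for A the margin was small (0.0725, and 0.0664 with sh-Control B). That is a hint from the data and not from the design. Between the hairpins, same-letter r was 0.0225 for A, -0.0487 for B and -0.0284 for D, which gave no such hint.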
